A study of Mus musculus with 6 samples.

Results

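The 30 genes described here encode enzymes of cholesterol synthesis (20 genes), the SREBP control machinery (5 genes) and proteins of cholesterol uptake, storage and efflux (5 genes). They are a list of named genes, set with earlier results of these data known, and 27 of the 30 could be matched to a row of the deposited array table, of 15302 named genes in all. Idi1, Fdps and Insig1 were not analysed here. Where a gene had several probe sets, the one brightest on average stands for it.

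Cells make cholesterol from acetyl-CoA by way of mevalonate, the isoprenoid units, squalene and lanosterol. SREBP transcription factors, which are membrane proteins of the endoplasmic reticulum, are carried to the Golgi by SCAP when sterol is scarce and are then cut, so that their active part reaches the nucleus and switches on the synthesis genes. INSIG proteins hold SCAP and SREBP back when sterol is plentiful. In the developing nervous system cholesterol is needed for membrane growth and for the Hedgehog signal, and defects of the last synthesis steps cause brain malformations.

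RNA was measured on 6 Affymetrix arrays, 1 per sample, of neural progenitor cells derived from mouse embryonic stem (ES) cells. All 6 samples carried Sox1-GFP, a reporter of the neural gene Sox1, and were sorted by FACS on day 4. Until then they grew as monolayers with N2 and B27 supplements, and all-trans retinoic acid was added at 0.5 µM on days 0 and 2. The 3 control samples had the genotype Sox1-GFP, and the 3 Sox3 samples had Sox1-GFP and Nestin-Sox3, a construct named for Nestin, a filament protein of neural progenitors, and for the transcription factor Sox3. The titles call the replicates biological. Which Nestin sequence drives Sox3, whether each genotype was 1 ES cell clone, and whether replicates were separate cultures were not stated, so p-values measure the spread between these samples. The comparison asks how expression differs when Sox3 is over-expressed.

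Sox3 was at 9.20, 9.23 and 9.22 on the Sox3 arrays and at 7.59, 7.52 and 7.25 on the control arrays (log2 signal), a difference of 1.76 ± 0.08 (SE; limma adjusted p = 0.000189). The median signal lay between 6.85 and 6.87 on all 6 arrays, and control replicate 3 had the widest interquartile range, 3.17 against 2.89 to 3.02. Of 7 neural progenitor markers all were measured and 1, Sox2, was lower (difference -0.37 ± 0.06, SE, limma adjusted p = 0.0241), where 2.67% of all genes were called lower. Mean log2 signals in Sox3 and control samples were 6.86 and 6.96 for Sox1, and 8.15 and 8.02 for Nes. Pax6 was at 5.84, 5.85 and 5.90 on the Sox3 arrays and 6.06, 6.09 and 6.01 on the control arrays, without overlap. Pax6 did not pass (difference -0.19 ± 0.05 SE, limma adjusted p = 0.0683), and was called lower with quantile normalisation, cyclic loess and array weights. Fabp7, a marker of radial glia, was at 6.73, 7.27 and 6.33 on the Sox3 arrays and 5.996, 5.99 and 6.04 on the control arrays, without overlap, and did not pass (difference 0.77 ± 0.20 SE, limma adjusted p = 0.0741). It was called higher with a filter at the 25th percentile of signal, with array weights and without Sox3 replicate 3. The table has no detection calls, and Pax6 and Hes5 lie in the dimmest 3 deciles of all genes. Only 2 of the 7, Sox2 and Vim, lie in the brightest 3 deciles, and Sox1 lies in decile 5, counted from the dimmest. Of 6 measured pluripotency markers 4 lie in the brightest 3 deciles. The name neural progenitor is that of the sample titles, and these levels do not establish it.

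Of the 27 measured cholesterol genes, 6 fell in the cells with the Sox3 transgene and none rose. The other 21 did not pass the threshold of a limma adjusted p under 0.05 (n = 3 per group). The adjustment was that of Benjamini and Hochberg, over all 21876 rows that are not array controls. The genes that fell were Acat2, Pmvk, Lss, Tm7sf2 and Dhcr7 among the enzymes and Srebf1 among the regulators, each by 0.35 to 0.44 on the log2 scale, or 1.28-fold to 1.36-fold. The 6 make up 22.2% of the measured members, whereas 2.67% of all 15302 named genes were called lower, 1.27% higher and 3.94% in either direction. All 3 Sox3 arrays lay below all 3 control arrays for 19 of the 27 members (70.4%), an arrangement found in 18.3% of all genes, and for 0 members did all 3 lie above. The difference was below 0 for 25 of 27 members, the exceptions being Mvk and Ggps1, against 50% of all genes. The median difference was -0.18 over the members and 5e-05 over all genes. At an unadjusted limma p under 0.05, 16 of the 27 members were lower and 0 higher, and 15.2% of all genes were lower.

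**Figure D1:**
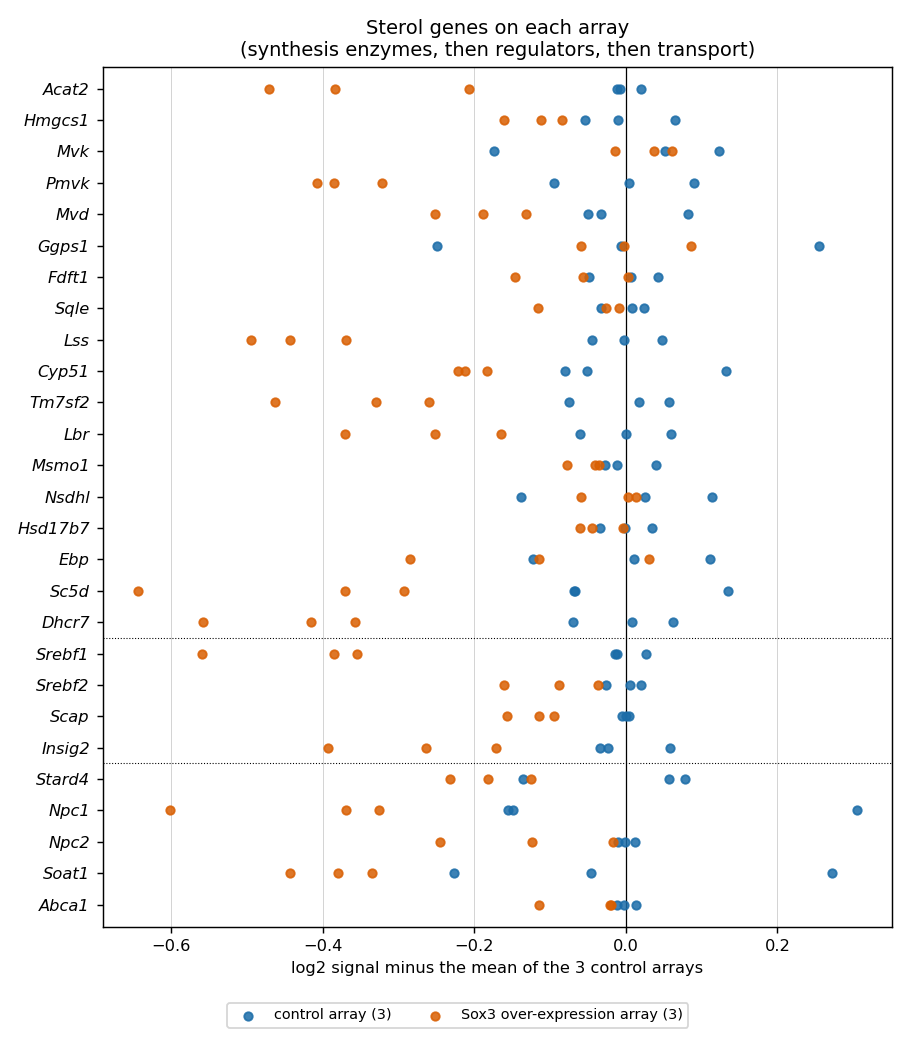
Log2 signal of the 27 measured sterol genes on each array (x axis, minus the mean of the 3 control arrays). Blue points are the 3 control arrays and orange points the 3 Sox3 arrays; the dotted lines part synthesis enzymes, regulators and transport genes. Orange points lie left of all blue points for 19 of the 27 genes.

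Differences also varied with signal over all genes. Of the 27 members, 21 lie in the brightest 3 deciles of all genes (10 equal groups by mean signal), where the median log2 difference of all genes was -0.08, 72.8% of genes were below 0, 32.5% had all Sox3 arrays below all control arrays, and 4.79% were called lower. Of those 21 members, 20 were below 0, 15 had no overlap and 6 were called, with a median of -0.19. After quantile normalisation of the deposited values the median of these bright genes moved to -0.0041, with 3.64% called lower, and that of the 21 members moved to -0.11, with 17 of 21 below 0 and 6 called. Over all genes that scaling turned the split from 195 higher and 408 lower to 297 higher and 393 lower (2.57%). Cyclic loess gave 283 higher and 353 lower (2.31%), a median of 0.00094 for the bright genes and of -0.11 for the 21 members. The 18 spiked hybridisation controls (bioB, bioC, bioD and cre), added to the sample and not made by the cells, were also lower on the Sox3 arrays, by a median of -0.23 (range -0.37 to -0.13). For 15 of the 18, all Sox3 arrays lay below all control arrays. Of 24 labelling controls (dap, lys, phe and thr), 21 were below 0 and 9 had all Sox3 arrays below all control arrays. Their median was -0.13 (range -0.39 to 0.06). The part of either set of controls in the sterol differences was not tested.

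**Figure D2:**
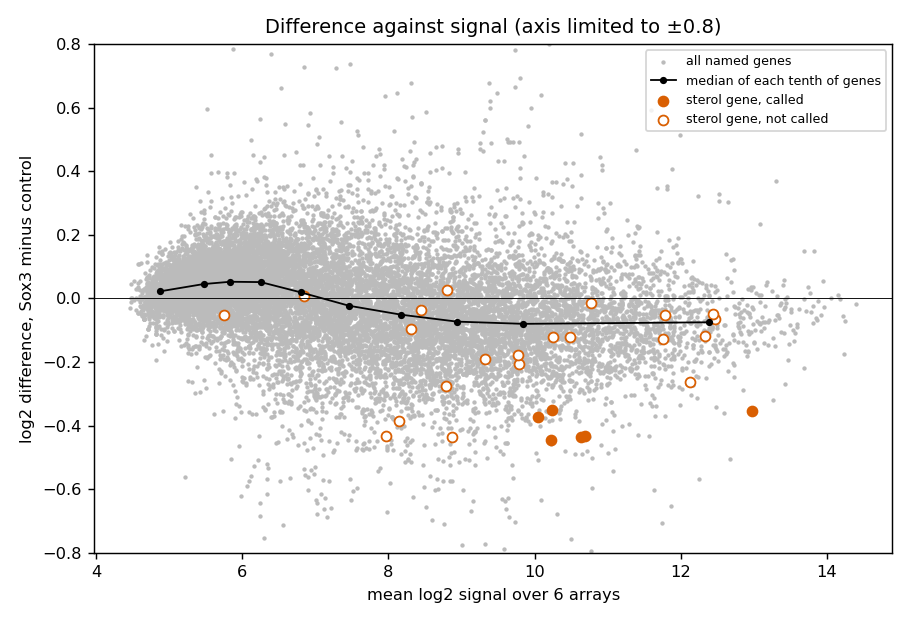
Log2 difference, Sox3 minus control (y axis, limited to 0.8 either way), against the mean log2 signal of each gene (x axis). Grey points are all named genes, the black line joins the medians of 10 equal groups of genes by signal, and orange points are sterol genes, filled where called. The 6 called genes lie at differences of -0.44 to -0.35, below the black line, which lies between 0.05 on its dim side and -0.08 on its bright side.

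The early enzymes build mevalonate and the isoprenoid units, and of the 6 measured 2 fell and 4 did not pass. Acat2, the cytosolic thiolase that joins acetyl-CoA units into acetoacetyl-CoA, was at 12.77, 12.95 and 12.69 on the Sox3 arrays and at 13.15, 13.18 and 13.15 on the control arrays. The groups did not overlap, although Sox3 replicate 2 lay closer to the controls than the other two. Its difference was -0.35 ± 0.07 (SE; limma adjusted p = 0.0368), 1.28-fold lower. Pmvk, phosphomevalonate kinase, was at 9.82, 9.91 and 9.85 against 10.24, 10.14 and 10.32, again without overlap. Its difference of -0.37 ± 0.06 (SE) is a fall of 1.29-fold (limma adjusted p = 0.0194).

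Hmgcs1, the synthase that makes HMG-CoA, was at 12.31, 12.28 and 12.23 on the Sox3 arrays and 12.38, 12.34 and 12.46 on the control arrays. These groups lay apart by a narrow gap, and the difference of -0.12 (95% interval -0.24 to -0.00028) did not pass (limma adjusted p = 0.218). Mvd, which decarboxylates mevalonate diphosphate, was at 9.17, 9.24 and 9.29 against 9.51, 9.39 and 9.37 (difference -0.19 ± 0.06 SE, limma adjusted p = 0.106). Mevalonate kinase, Mvk, showed no such gap, with 8.85, 8.83 and 8.78 among control values of 8.84, 8.92 and 8.62. Ggps1, which makes geranylgeranyl diphosphate for protein prenylation rather than sterol, showed none either. Its Sox3 values of 6.93, 6.84 and 6.78 lay inside the control range of 6.59 to 7.10. The 95% intervals of their differences ran from -0.15 to 0.21 for Mvk and from -0.26 to 0.27 for Ggps1.

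Squalene and lanosterol are formed by Fdft1, Sqle and Lss, of which only Lss fell. Lss, lanosterol synthase, which closes the sterol ring, was at 10.49, 10.41 and 10.36 in Sox3 samples and at 10.91, 10.81 and 10.85 in control samples. Every Sox3 array lay well below every control array. The difference was -0.44 ± 0.05 (SE; limma adjusted p = 0.00765), 1.35-fold lower, the smallest adjusted p among the members. Fdft1, squalene synthase, was at 12.35, 12.44 and 12.50 against 12.54, 12.51 and 12.45, and Sqle, squalene epoxidase, at 12.35, 12.46 and 12.44 against 12.48, 12.43 and 12.49. Both overlapped between the groups, with differences of -0.07 (95% interval -0.19 to 0.06) and -0.05 (-0.17 to 0.06).

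The steps from lanosterol to cholesterol are run by 9 measured enzymes, of which 2 fell and 7 did not pass, all 9 with a difference below 0. Of the 9, 8 lie in the brightest 3 deciles, where 72.8% of all genes were below 0 and 4.79% were called lower. Msmo1, Nsdhl and Hsd17b7 lay above 0 after quantile normalisation and after cyclic loess. Tm7sf2, a sterol C14 reductase, was at 9.95, 10.09 and 10.16 on the Sox3 arrays and 10.34, 10.44 and 10.48 on the control arrays, a fall of 1.28-fold (difference -0.35 ± 0.07 SE, limma adjusted p = 0.0325). Lbr, the lamin B receptor, carries the same reductase activity in the inner nuclear membrane. It was at 12.01, 12.09 and 11.89 against 12.32, 12.20 and 12.26, without overlap, and did not pass (difference -0.26 ± 0.06 SE, limma adjusted p = 0.0669). Dhcr7, which makes cholesterol from 7-dehydrocholesterol in the last step and is mutated in the Smith-Lemli-Opitz syndrome in humans, was at 10.03, 10.09 and 9.89 in Sox3 samples. Its control values were 10.38, 10.46 and 10.51, all of them higher. The fall was 1.36-fold (difference -0.44 ± 0.07 SE, limma adjusted p = 0.0137).

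Sc5d, the desaturase that acts just before Dhcr7, lay on the edge of the threshold. It was at 8.44, 8.79 and 8.71 against 9.02, 9.01 and 9.22, and Sox3 replicate 1 was the lowest array. The difference of -0.44 ± 0.10 (SE) was close to that of Dhcr7, with a wider error and a limma adjusted p of 0.0535. That p was 0.0446 after quantile normalisation, and 0.0789 to 0.125 with any 1 array left out. Cyp51, the lanosterol demethylase, was at 9.68, 9.71 and 9.67 against 9.81, 9.84 and 10.02, without overlap (difference -0.21 ± 0.06 SE, limma adjusted p = 0.115). Msmo1, Nsdhl and Hsd17b7, which act together in removing methyl groups at C4, had differences of -0.05, -0.0143 and -0.04, with limma adjusted p of 0.527, 0.911 and 0.657, and their 95% intervals reached no lower than -0.17. Of these 3, Msmo1 alone had no overlap, at 11.77, 11.73 and 11.77 against 11.78, 11.85 and 11.80. Ebp, the sterol isomerase, was at 10.26, 10.43 and 10.58 against 10.43, 10.56 and 10.66, and the groups overlapped (difference -0.12 ± 0.09 SE).

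**Figure D3:**
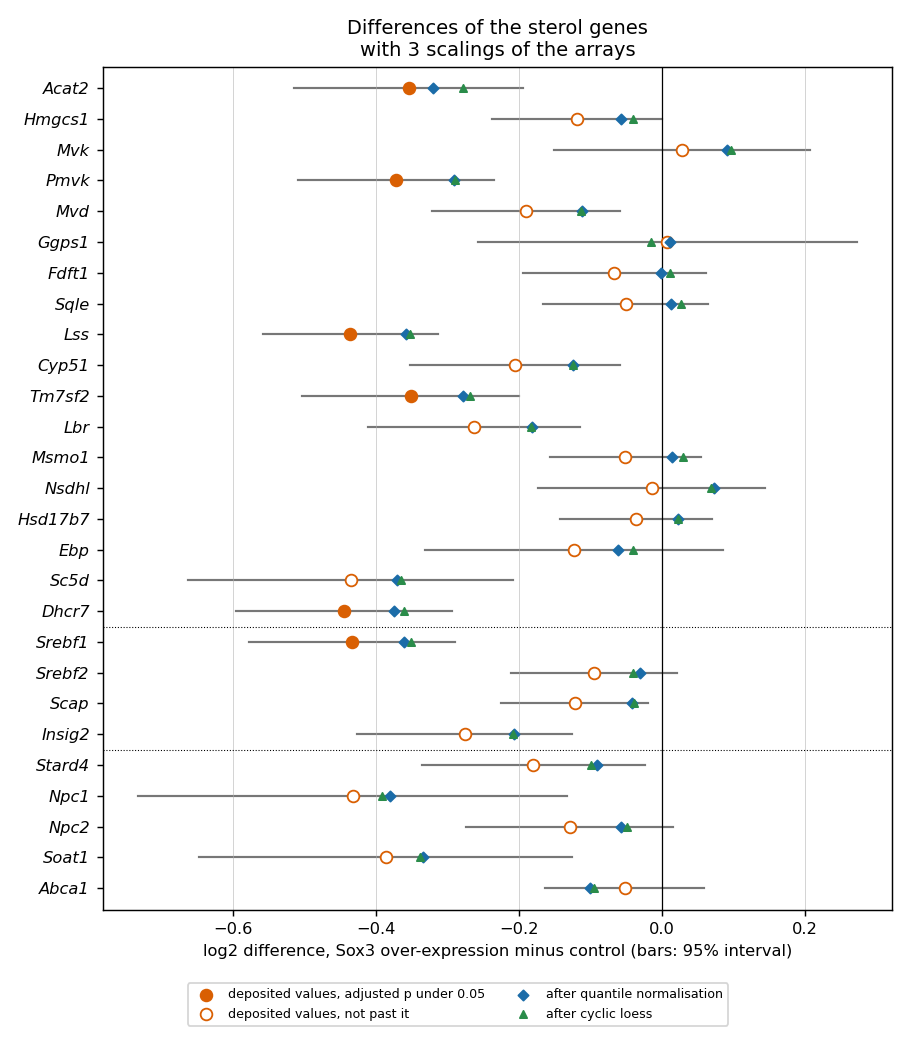
Log2 difference, Sox3 minus control (x axis), for each sterol gene with its 95% interval from the deposited values (grey bars). Orange circles are the deposited values, filled where called; blue diamonds are the differences after quantile normalisation and green triangles after cyclic loess. Lss, Dhcr7 and Srebf1 stay between -0.44 and -0.35 with all 3 scalings, while Fdft1, Sqle, Msmo1, Nsdhl and Hsd17b7 lie close to 0.

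All 4 measured regulators lay lower on every Sox3 array than on any control array, as did 18.3% of all genes and 32.5% of those in the brightest 3 deciles, where 3 of the 4 lie, and 1 of them was called. Srebf1, the gene of SREBP-1, which drives fatty acid genes more than sterol genes, was at 10.34, 10.52 and 10.55 on the Sox3 arrays. Its control values were close together at 10.89, 10.89 and 10.93. It fell 1.35-fold (difference -0.43 ± 0.06 SE, limma adjusted p = 0.0124). Srebf2, the gene of SREBP-2, the main activator of the sterol enzymes, was at 8.33, 8.28 and 8.20 against 8.34, 8.37 and 8.38. The groups nearly touched, and the difference of -0.10 (95% interval -0.21 to 0.02) did not pass (limma adjusted p = 0.296). The array reads transcript amount, whereas SREBP activity is set by cleavage of the protein, which was not measured.

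Scap, the escort of SREBP, was at 10.15, 10.21 and 10.19 against 10.31, 10.30 and 10.31. The control arrays were nearly equal, and the difference was -0.12 ± 0.04 (SE; limma adjusted p = 0.157). Insig2, which retains SCAP in the endoplasmic reticulum, was at 8.53, 8.66 and 8.75 against 8.89, 8.90 and 8.98 (difference -0.28 ± 0.07 SE, limma adjusted p = 0.0605). A second Insig2 probe set gave -0.21 ± 0.07 (SE; limma adjusted p = 0.122), and the second Scap probe set holds the same values as the first. A test of whether the Srebf1 and Srebf2 differences differ from each other was not made.

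None of the 5 listed genes of uptake, storage and efflux was called. At an unadjusted limma p under 0.05, 3 were lower and 0 higher, where 15.2% of all genes were lower. All 5 had a difference below 0, as did 50% of all genes. The HDL receptor Scarb1 is not among these 5 and was called lower, as described below. Npc1, the membrane protein that moves cholesterol out of lysosomes, was at 7.58, 7.81 and 7.86 in Sox3 samples and at 8.03, 8.03 and 8.49 in control samples. Its difference of -0.43 was as large as those of the called enzymes, but control replicate 3 stood above the other controls and the SE was 0.13 (limma adjusted p = 0.107). Soat1, which esterifies cholesterol for storage, had the same kind of spread, at 7.95, 7.9997 and 7.89 against 8.11, 8.29 and 8.61 (difference -0.39 ± 0.11 SE, limma adjusted p = 0.1001). Without control replicate 3 the differences were -0.28 for Npc1 and -0.25 for Soat1. Stard4, a soluble sterol carrier, was at 9.68, 9.73 and 9.63 against 9.72, 9.92 and 9.94, and Npc2, the soluble partner of NPC1 in the lysosome, at 11.58, 11.70 and 11.80 against 11.82, 11.81 and 11.83. The Stard4 groups overlapped and those of Npc2 lay just apart. Abca1, the efflux transporter that LXR induces when sterol is high, was dim in both groups, at 5.66 to 5.75 and 5.76 to 5.79. It lies in decile 3 of signal, counted from the dimmest, where 5 of 1530 genes were called lower.

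The members did not move equally on every array. The median of the 27 members, relative to the control mean, was -0.25 on Sox3 replicate 1, -0.13 on replicate 2 and -0.16 on replicate 3, and 24, 20 and 21 members lay below every control array. Sox3 replicate 2 was the highest of the Sox3 arrays for 12 members and the lowest for 1. Among the control arrays, replicate 3 was the highest for 18 of the 27.

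The calls of Lss and Srebf1 held in all 6 fits with 1 array left out, with limma adjusted p up to 0.0416 and 0.0497. Dhcr7 kept its call in 4 of these fits, and lost it without Sox3 replicate 1 (0.0581) or control replicate 2 (0.0548). Pmvk and Tm7sf2 kept theirs in 2 fits each. Pmvk lost it without control replicate 1 or any 1 Sox3 array (adjusted p up to 0.0854), and Tm7sf2 without Sox3 replicate 1 or 2 or control replicate 2 or 3 (up to 0.1003). Acat2 kept its call only without Sox3 replicate 2, its adjusted p reached 0.130 without Sox3 replicate 1, and it was lost after quantile normalisation (0.0629) and cyclic loess (0.0857). All 6 genes kept their direction in each of these fits. The number of members called lower was 2 without Sox3 replicate 1, 3 without control replicate 2 and 4 without any other array. Calls over all genes fell as well. With all 6 arrays 2.67% of all genes were called lower. The share was 0.431% without Sox3 replicate 1, 0.935% without control replicate 2 and 0.595% to 1.41% without any other array.

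**Figure D4:**
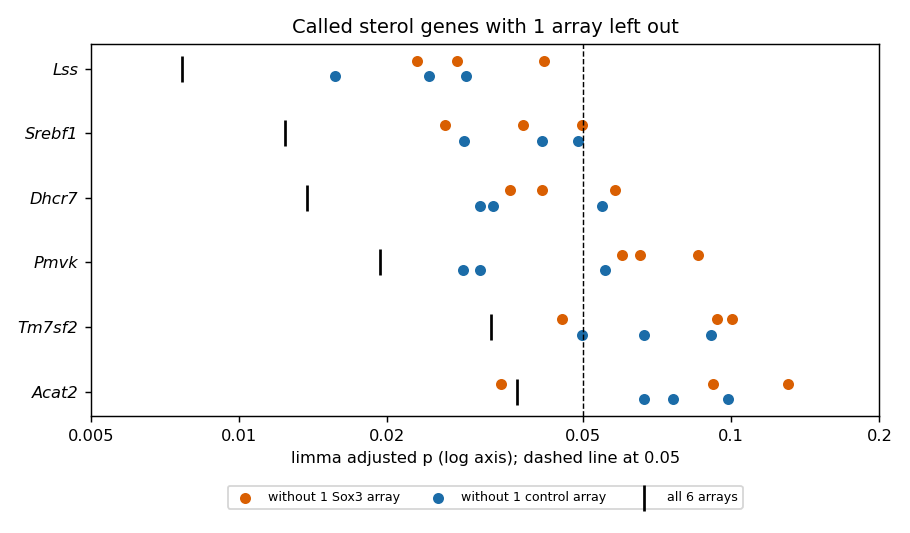
Adjusted p (x axis, log scale) of the 6 called sterol genes when 1 array is left out. Orange points leave out a Sox3 array, blue points a control array, and black ticks are the fit with all 6 arrays. All points of Lss and Srebf1 lie left of the dashed line at 0.05, and 5 of 6 points of Acat2 lie right of it.

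Upstream sequence was set beside these values because SREBP binds a short element in the promoters of sterol genes together with NF-Y, which binds CCAAT. RefSeq promoters (GRCm38.p6) were matched for 23 of the 27 measured members, as 31 start sites. The 250 bases before each start were searched on both strands for TCACNCCA, the core of the sterol regulatory element, for CCAAT, and for CNTTGT. N stands for any base. CNTTGT is a loose pattern related to the core bound by Sox proteins, and not that core itself. TCACNCCA was found before the starts of 3 members, Hmgcs1, Msmo1 and Srebf2, none of them called, in 3 of 31 windows against 3.67% of 32851 windows of all genes. CCAAT was present for 20 of the 23 members, in 21 of 31 windows against 33.8% of all, and for 5 of the 6 called members, Acat2 being the exception. CNTTGT was in 8 of 31 windows against 36.3% of all, and among called members only in Dhcr7. A match of letters is not a binding site, and a window without one says nothing of sites elsewhere.

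The stretches below are those of the 3 members with a sterol element core and of the 3 called members that have a single start site in the table. They run from base -200 to base -1 before the start, and for Lss to base -41, where the gene begins in the gene table. They are given in the 5′ to 3′ direction of the gene, and capitals mark TCACNCCA and CCAAT on either strand, so that CCAAT on the reverse strand reads ATTGG. No 2 marked matches overlap.
Hmgcs1, chr13:119690151-119690350, + strand: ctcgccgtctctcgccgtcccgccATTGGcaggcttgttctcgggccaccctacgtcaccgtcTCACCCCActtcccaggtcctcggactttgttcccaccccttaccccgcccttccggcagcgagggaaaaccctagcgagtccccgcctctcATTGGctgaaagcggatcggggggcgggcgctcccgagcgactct
Msmo1, chr8:64733579-64733778, - strand: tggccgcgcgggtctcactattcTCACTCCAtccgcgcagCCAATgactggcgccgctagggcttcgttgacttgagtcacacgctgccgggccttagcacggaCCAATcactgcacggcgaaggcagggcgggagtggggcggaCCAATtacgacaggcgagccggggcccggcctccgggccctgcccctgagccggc
Srebf2, chr15:82147069-82147268, + strand: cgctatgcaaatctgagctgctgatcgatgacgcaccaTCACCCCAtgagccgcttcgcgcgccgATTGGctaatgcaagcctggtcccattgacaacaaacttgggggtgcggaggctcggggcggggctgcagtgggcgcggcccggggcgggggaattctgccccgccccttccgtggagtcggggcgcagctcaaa
Acat2, chr17:12960726-12960925, - strand: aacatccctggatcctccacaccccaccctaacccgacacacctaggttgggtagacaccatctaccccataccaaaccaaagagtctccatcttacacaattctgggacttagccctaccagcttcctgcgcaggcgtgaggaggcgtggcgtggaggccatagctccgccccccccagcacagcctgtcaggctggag
Lss, chr10:76531405-76531564, + strand: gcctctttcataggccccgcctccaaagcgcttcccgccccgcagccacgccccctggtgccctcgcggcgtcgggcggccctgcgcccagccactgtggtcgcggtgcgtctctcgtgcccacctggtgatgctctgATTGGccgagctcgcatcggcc
Tm7sf2, chr19:6067851-6068050, - strand: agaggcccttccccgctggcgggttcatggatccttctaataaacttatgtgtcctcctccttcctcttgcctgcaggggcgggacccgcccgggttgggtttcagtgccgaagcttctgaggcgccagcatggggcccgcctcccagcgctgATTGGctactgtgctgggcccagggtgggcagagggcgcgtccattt
In Hmgcs1 the sterol core lies at -137 to -130, and in Msmo1 and Srebf2 at -177 to -170 and -162 to -155. CCAAT letters stand at -62 in Lss and at -47 in Tm7sf2, both on the reverse strand.

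Of 13 measured fatty acid genes, a class that SREBP-1 is known to induce, 6 fell and 0 rose, with a median difference of -0.22. The 6 are a share of 46.2%, against the 2.67% of all genes called lower. Of the 13, 11 lie in the brightest 3 deciles, where 4.79% of all genes were called lower and the median difference was -0.08. Scd1, the stearoyl-CoA desaturase, was at 10.48, 10.49 and 10.49 on the Sox3 arrays and at 11.12, 11.0001 and 11.14 on the control arrays. These groups lay further apart than those of any sterol enzyme, with a fall of 1.51-fold (difference -0.60 ± 0.05 SE, limma adjusted p = 0.00255) that held with any 1 array left out. Its paralogue Scd2 was at 10.04, 9.92 and 10.05 against 10.36, 10.39 and 10.42, a fall of 1.31-fold (limma adjusted p = 0.0109). Fasn, fatty acid synthase, was at 11.46, 11.50 and 11.48 against 11.82, 11.79 and 11.77, a fall of 1.24-fold (limma adjusted p = 0.0117). Fads2, a desaturase of polyunsaturated fatty acids, fell 1.30-fold (limma adjusted p = 0.0179).

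Acaca, acetyl-CoA carboxylase, and Acly, the citrate lyase that supplies acetyl-CoA to both pathways, fell 1.26-fold and 1.18-fold (limma adjusted p = 0.0451 and 0.0430). Both lost their call after quantile normalisation, cyclic loess, median centring and with any 1 array left out (limma adjusted p up to 0.138 and 0.147). Fasn lost its call without Sox3 replicate 1 or 2, Scd2 without Sox3 replicate 2, and Fads2 without Sox3 replicate 2 or 3 or control replicate 2 and after quantile normalisation or cyclic loess (limma adjusted p up to 0.0602, 0.0501 and 0.0777). The fatty acid list had 3 calls after quantile normalisation and cyclic loess, and 1 without Sox3 replicate 2. The other 7 genes of this list, with differences from -0.22 for Acss2 to 0.18 for Lpin1, did not pass. Elovl6, Gpam and Lpin1 lay above 0, and the Lpin1 groups did not overlap.

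**Figure D5:**
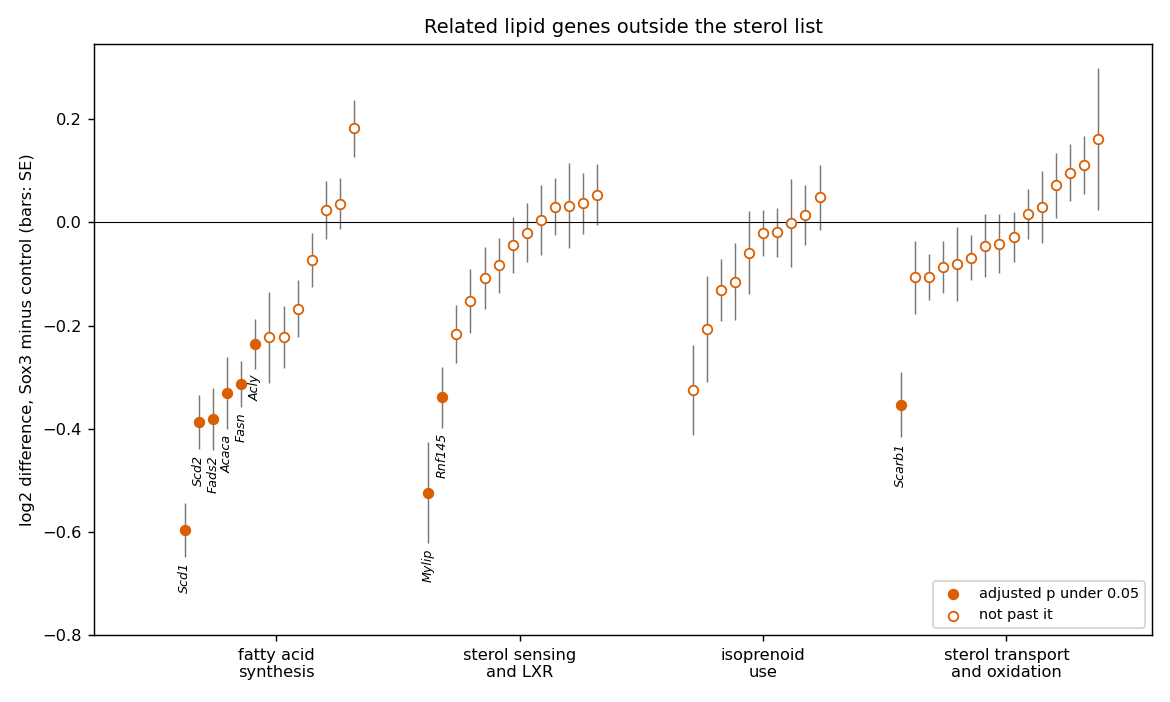
Log2 difference, Sox3 minus control (y axis, bars are the SE), for the measured genes of 4 related lists, each gene 1 point and ordered by value within its list. Filled points passed an adjusted p of 0.05: 6 of 13 fatty acid genes, 2 of 13 genes of sterol sensing and LXR, 0 of 10 isoprenoid genes and 1 of 15 genes of sterol transport and oxidation, all of them below 0.

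Other genes around the pathway showed fewer calls than the fatty acid list. In a list of 13 further measured genes of sterol sensing and the LXR response, 2 fell and 11 did not pass, with a median difference of -0.04. The 2 make up 15.4% of the list, against 2.67% of all genes and 4.79% of the brightest 3 deciles, where 9 of the 13 lie. Rnf145, an endoplasmic reticulum ubiquitin ligase with a sterol-sensing domain, was at 11.40, 11.48 and 11.45 against 11.78, 11.69 and 11.88 (1.26-fold lower, limma adjusted p = 0.0252). Mylip, an LXR target whose product marks lipoprotein receptors for breakdown, was at 8.06, 8.13 and 8.44 against 8.65, 8.73 and 8.82 (1.44-fold lower, limma adjusted p = 0.0325). Rnf145 kept its call in 2 and Mylip in 1 of the 6 fits with an array left out (limma adjusted p up to 0.1003 and 0.109). Of 15 genes of sterol transport and oxidation only Scarb1, the HDL receptor SR-BI, fell, a share of 6.67% against 2.67% of all genes. Scarb1 was at 8.92, 9.02 and 9.01 against 9.26, 9.30 and 9.45 (1.28-fold lower, limma adjusted p = 0.0280). That call was lost without any 1 Sox3 array or control replicate 2 (up to 0.106), and the list's median difference was -0.04.

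None of 10 genes that use isoprenoids for prenylation, ubiquinone or dolichol was called (limma; 1 was lower and 0 higher at an unadjusted p under 0.05). Those furthest from 0 were Coq2, the prenyltransferase of ubiquinone synthesis, at -0.33 ± 0.09, and Icmt, which methylates prenylated proteins, at -0.21 ± 0.10 (SE; limma adjusted p = 0.0815 and 0.276).

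Markers of other cell types also moved with the groups. Of 7 endoderm markers 4 fell, namely Foxa2 (difference -0.57), Afp (-0.56), Ttr (-0.29) and Cubn (-0.999), where 2.67% of all genes were called lower. The other 3 had differences above 0 and did not pass, with 0.35 for Gata6, 0.26 for Gata4 and 0.08 for Sox17 (limma adjusted p = 0.148, 0.151 and 0.728). Their list summed to 1404 to 1689 signal units, on the linear scale, on the Sox3 arrays and 1552 to 2035 on the control arrays. Of the 7 endoderm markers 2, the called Afp and Ttr, lie in the dimmest 3 deciles of genes. Afp was at 4.93 to 4.94 on the Sox3 arrays. Of 7 neuronal markers 1, Nefm, fell, with sums of 1215 to 1316 against 1453 to 1597, and 5 of the 7 lie in the dimmest 3 deciles of genes. The brighter 2, Tubb3 (difference -0.51) and Stmn2 (-0.22), lay lower without overlap and did not pass (limma adjusted p = 0.0507 and 0.0572). Tubb3 was called lower with both filters on signal, with an intensity trend and without control replicate 2. Stmn2 was called lower with the filter at the median and with array weights. Among 7 mesoderm and contractile markers Acta2 and Tagln rose and Foxc2 fell, where 1.27% of all genes were called higher and 2.67% lower. T, Mesp1, Tbx6 and Kdr had differences of 0.12, 0.23, 0.10 and 0.14 and did not pass (limma adjusted p = 0.303, 0.143, 0.490 and 0.285). The list summed to 1682 to 2004 against 1030 to 1200, and Acta2 and Tagln weigh most in the sums of the Sox3 arrays. None of 6 measured pluripotency markers was called (limma; 1 was lower and 1 higher at an unadjusted p under 0.05), with sums of 20337 to 21851 against 20810 to 23360. Of these marker calls, those of Acta2, Tagln and Foxc2 held with any 1 array left out, and those of Foxa2, Afp, Ttr, Cubn, Nefm and Sox2 held in 1 to 4 of the 6 such fits. No marker value is 0 in this table, whose lowest value is 4.41. The part of these cells in the sterol differences was not tested, and in bulk RNA fewer cells of a type cannot be told apart from less RNA per cell. The signal of Actb at its 3′ end exceeded that at its 5′ end by 1.02 to 1.30 on the Sox3 arrays and 1.33 to 1.39 on the control arrays, and for Gapdh by 0.98 to 1.16 and 0.96 to 0.99 (log2), and the part of RNA quality was not tested either.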

How the data were processed

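The deposited table holds 1 log2 value per probe set and array. Per the submitters' processing notes, which name RMA and Affymetrix Power Tools without versions, the authors normalised the values before depositing them. Neither the array type nor how probes were grouped is known here. RMA subtracts background, equalises the arrays and compresses small signals. Of 21940 rows, 64 array controls were left out of the tests. RefSeq accessions were paired with symbols through a RefSeq gene table (GRCm38.p6), and 17123 of 21876 rows had 1 symbol. Some rows repeat the values of another, so that the 21876 rows hold 18009 distinct profiles. The adjustment of p ran over all 21876.

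Groups (3 samples each, from the titles) were compared by a two-sided limma fit (limma 3.58.1, R 4.3.3) without a block or filter, and the fit was tested on simulated data. Differences are Sox3 minus control, with the moderated SE. The number of arrays limits the precision. The members, the related lists and the motifs were chosen with earlier results of these data known. All members were described, and of each related list every called gene, or the 2 furthest from 0. Alternatives covered scaling, dim probe sets, the variance model, array weights, a replicate block, probe set averaging and single arrays. Promoter sequences are from RefSeq.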

Additional observations from a re-analysis of the deposited data

How the results depend on the processing

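The 6 sterol calls were 6 again with quantile normalisation and cyclic loess (Sc5d in place of Acat2), and the same 6 with median centring, robust variances and probe set averaging. They were 7 with an intensity trend, 8 and 9 with filters at the 25th percentile and the median of signal, and 10 with array weights, and in no setting was a sterol gene called higher. The share of all genes called lower also changed. It was 2.67% in the main fit, 2.62% with the intensity trend and 6.38% with array weights. With the filters it was 4.54% and 7.07%, and the filter at the median tested 25 members. With 1 array left out there were 2 to 4 sterol calls. Over all genes, higher calls numbered 297 with quantile normalisation and 607 with array weights, where lower calls were 976; with 1 array left out they were 58 to 147 higher and 66 to 215 lower. The replicate numbers are not known to mark pairs (same-numbered deviations correlated at 0.292, -0.215 and 0.093), and a replicate block gave 191 higher and 382 lower genes and 9 sterol calls, adding Sc5d, Insig2 and Npc1; Acaca and Acly lost their call with it (adjusted p = 0.0753 and 0.0696).

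Members near 0 changed sign. With 1 array left out Mvk ran from -0.0593 (without control replicate 3) to 0.0895, Ggps1 from -0.1166 (without control replicate 1; -0.031 without Sox3 replicate 1) to 0.1355, and Nsdhl from -0.0838 to 0.0422 (without control replicate 1; 0.008 without Sox3 replicate 1). Mvk was at -0.0567 with array weights, and Ggps1 at -0.0147 and Fdft1 at 0.0114 with cyclic loess. With quantile normalisation and cyclic loess Sqle was at 0.0127 and 0.0272, Msmo1 at 0.0145 and 0.0294, Nsdhl at 0.0736 and 0.0684, and Hsd17b7 at 0.0233 and 0.0229. None of these passed in any setting, and the cause was not tested. The filter at the median of signal left out Ggps1 and Abca1.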
